A study of Mus musculus with 12 samples.

Results

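Genes of mitosis, the kinetochore and the mitotic kinesins were followed across 12 expression arrays of cultured mouse microglia. The set was a list of 50 gene symbols, each measured by the probe set that the platform annotation assigns to that gene alone, and 49 of the 50 were found among 19938 such genes. Ccnb1 was on no probe set of its own in that annotation and was not analysed here, and Top2a was on more than 1 probe set, of which the one with the highest mean was used. Microglia were taken with CD11b magnetic beads from brains of C57BL/6J pups on postnatal day 7, grown for 3 days in medium with serum, and treated for 6 h. Vehicle cells received 0.4% DMSO and 0.001% ethanol. The Aβ42 group received 10 µM oligomeric Aβ42, the long form of amyloid-β, with 0.001% ethanol, the AE1-329 group received 100 nM AE1-329, which activates EP4, one of the prostaglandin E2 receptors, with 0.4% DMSO, and the group given both agents received 10 µM Aβ42 and 100 nM AE1-329. The labels list DMSO for the vehicle and AE1-329 groups alone, and ethanol for the vehicle and Aβ42 groups alone. If these labels are complete, a difference in solvent cannot be told apart from an effect of the agents. Each of the 4 groups held 3 arrays, from microglia of 3 separate litters, and the replicate numbers 1, 2 and 3 were taken as the litters. A replicate is thus a litter of pups and not an animal. The question was how the peptide and the EP4 agonist, alone and together, change the microglial transcriptome.

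Values are log2 expression values, on which a difference of 1 is a 2-fold difference. A level on this scale is specific to its probe set, so levels were compared between arrays and not between genes. A difference was called where limma's p, adjusted by the method of Benjamini and Hochberg over all 19938 genes of a comparison, lay below 0.05, and rose and fell are used of such calls alone. The mean over 13 measured microglia markers lay between 11.15 and 11.37 on every array. The arrays hold bulk RNA, so fewer dividing cells and less mitotic RNA per dividing cell cannot be told apart.

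Cells enter mitosis when cyclins of the A and B type activate Cdk1. Condensin then compacts the chromosomes, kinesins and Aurora and Polo-like kinases build the spindle, and each centromere, marked by the histone H3 variant CENP-A, carries a kinetochore that holds the spindle microtubules. The spindle checkpoint delays the anaphase-promoting complex until all chromosomes are attached, after which separase cleaves cohesin and the cell divides. Most of these genes are switched on together late in the cell cycle, through the transcription factor FOXM1 and the MuvB complex, which is drawn to a promoter element called CHR, and through NF-Y, which binds CCAAT boxes. In cultures of young microglia they are the usual signature of proliferation.

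Most of the set was lower with Aβ42 alone than with vehicle. After 6 h, 33 of the 49 genes had fallen against vehicle and 16 did not pass, where 14.8% of all genes fell. None of the 49 rose by limma, with 1 higher at an unadjusted p under 0.05, where 10.7% of all genes rose. Estimates were negative for 47 of the 49, the median difference was -0.48 against 0.02 over all genes, and 46 genes were lower in each of the 3 litters. The 3 Aβ42 arrays lay below all 3 vehicle arrays for 38 genes and above them for 2, where 18.6% and 16.4% of all genes were apart in these directions. The largest fall was that of Bub1b, 1.78-fold, and the smallest called fall that of Mki67, 1.25-fold. In a fit of only the genes above the median level, 30 of 42 members fell, where 27.8% of those genes fell. In that fit 1 member rose, where 19.6% of those genes rose. Without the Aβ42 array of litter 1 the count of falls among the 49 was 21, where 12.2% of all genes fell. With the litter as a block it was 43 of 49, against 16.5% of all genes, and Pttg1 passed as higher, where 12.1% of all genes rose. Of the 16 genes that did not pass, Cdc20, Incenp, Nek2, Spc24 and Ube2c did not pass with the block either. A gene that passed against vehicle in the blocked fit alone is given with that fit's p.

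**Figure D1:**
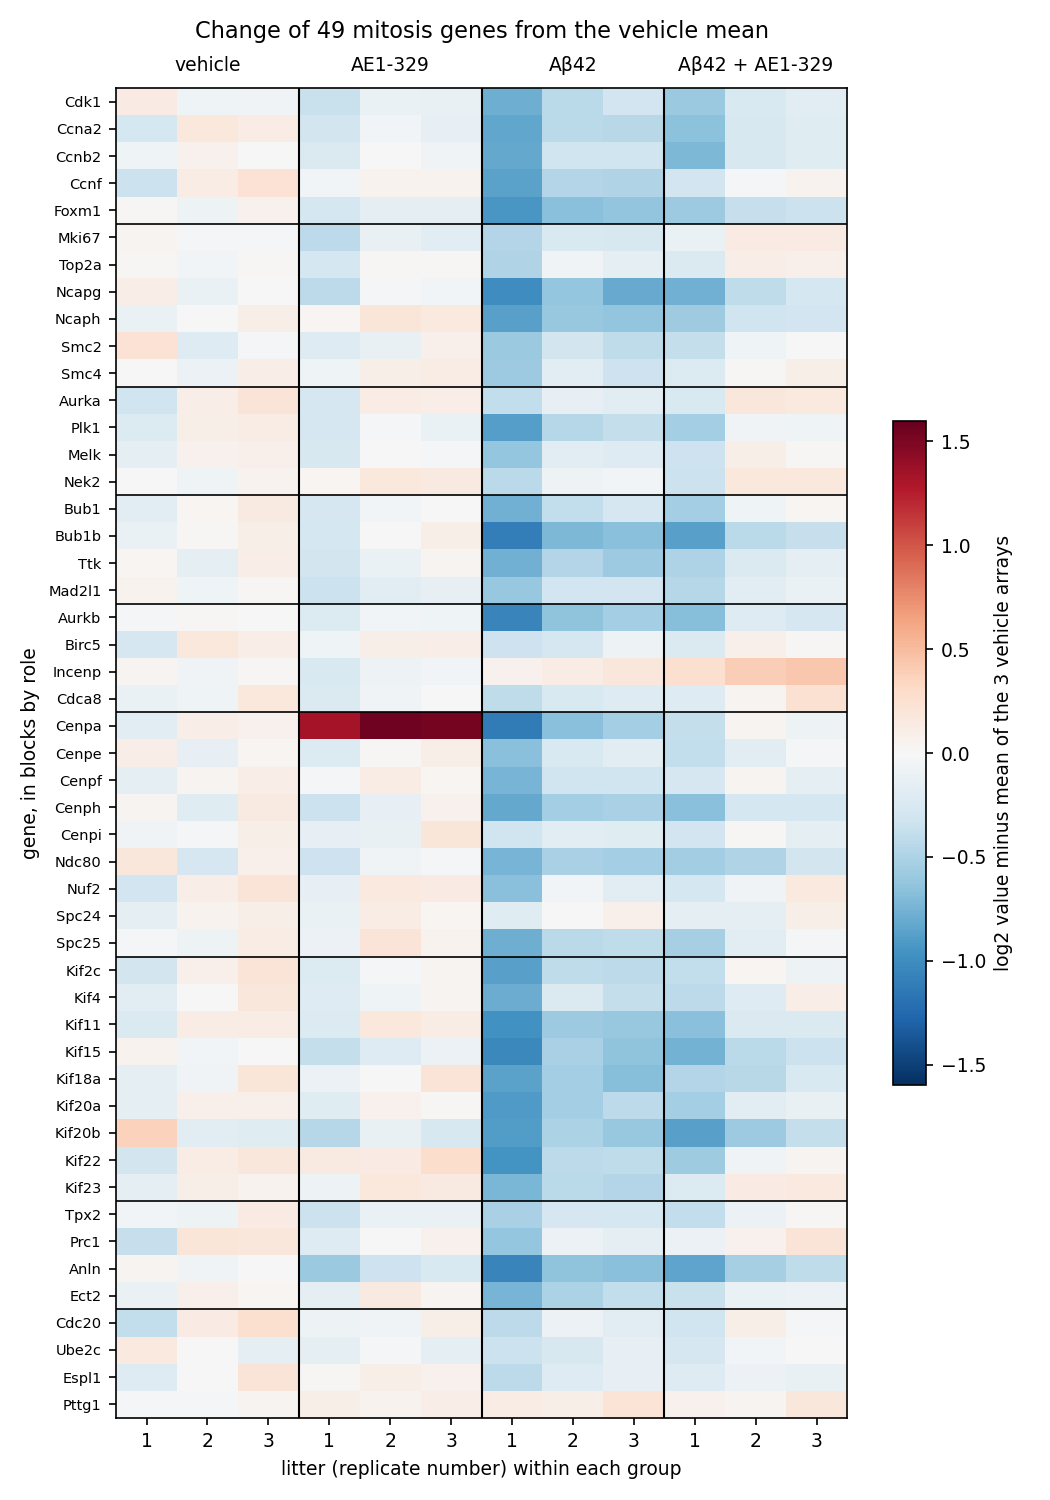
Log2 value of each of the 49 genes (rows, in blocks by role) on each of the 12 arrays (columns, by group and litter), as the difference from the mean of the 3 vehicle arrays. Blue marks lower and red higher values. The Aβ42 columns are blue for most genes and deepest in litter 1, and Cenpa is deep red in the 3 AE1-329 columns.

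Promoters are shown because most of these genes moved together. RefSeq's table of promoters (assembly GRCm38.p6, 250 bases before to 50 after each annotated start) held 41 of the 49 genes. The CHR letters TTTGAA were found on either strand in 29 of the 41, or 70.7%, and in 18.1% of all 27025 promoters of the table. CCAAT was found in 70.7% of the members and 37.9% of all promoters, and both CHR and CCAAT in 58.5% and 7.12%. The variant TTCGAA was found in 7.32% against 1.57%, and an E2F motif, TTCCCGC or TTGGCGC, in 19.5% against 6.93%. A base could belong to more than 1 match, and TTCGAA reads the same on both strands. Of the 27 members with a promoter that fell with Aβ42 alone, 22 held CHR, 19 held CCAAT and 8 held an E2F motif. Among the 14 that did not pass, 7 held CHR, 10 held CCAAT and 0 held an E2F motif. A match to letters is a description of the window and no evidence of binding.

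The 6 members with a promoter and the smallest p for Aβ42 alone are shown first, from 150 bases before to 30 after the start, 5′ to 3′ on the gene's strand. Cdk1, Mki67 and Cenpa follow, chosen after their values were seen, because Cdk1 and Mki67 hold CHR and CCAAT near each other and Cenpa is the member with a response of its own. Capitals mark every match to these motifs, on either strand, that lies wholly inside the printed stretch.
Ncaph (chr2:127133925-127134104, minus strand): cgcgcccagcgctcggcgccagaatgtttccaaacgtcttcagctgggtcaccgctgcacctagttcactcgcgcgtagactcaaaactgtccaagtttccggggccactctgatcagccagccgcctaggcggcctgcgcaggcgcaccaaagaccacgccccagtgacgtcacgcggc
Kif18a (chr2:109280588-109280767, plus strand): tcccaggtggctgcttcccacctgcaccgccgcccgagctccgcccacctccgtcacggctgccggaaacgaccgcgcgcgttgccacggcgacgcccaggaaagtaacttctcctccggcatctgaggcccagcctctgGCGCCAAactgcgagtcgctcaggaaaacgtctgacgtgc
Anln (chr9:22389177-22389356, minus strand): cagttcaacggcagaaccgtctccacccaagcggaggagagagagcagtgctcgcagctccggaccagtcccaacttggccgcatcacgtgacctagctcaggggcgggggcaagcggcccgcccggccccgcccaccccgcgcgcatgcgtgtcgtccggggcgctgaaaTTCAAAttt
Ncapg (chr5:45669775-45669954, plus strand): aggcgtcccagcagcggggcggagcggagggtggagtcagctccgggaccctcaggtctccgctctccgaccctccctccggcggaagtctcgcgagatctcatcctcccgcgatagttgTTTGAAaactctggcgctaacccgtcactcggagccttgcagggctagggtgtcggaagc
Bub1b (chr2:118598061-118598240, plus strand): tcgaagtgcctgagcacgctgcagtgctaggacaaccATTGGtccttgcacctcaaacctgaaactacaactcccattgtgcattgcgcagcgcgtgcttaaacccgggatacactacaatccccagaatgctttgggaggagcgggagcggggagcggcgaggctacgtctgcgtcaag
Kif15 (chr9:122950931-122951110, plus strand): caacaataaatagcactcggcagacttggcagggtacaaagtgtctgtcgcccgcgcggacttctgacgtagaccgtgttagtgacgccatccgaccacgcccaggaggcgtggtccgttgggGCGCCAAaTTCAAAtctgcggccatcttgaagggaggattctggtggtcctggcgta
Cdk1 (chr10:69352883-69353062, minus strand): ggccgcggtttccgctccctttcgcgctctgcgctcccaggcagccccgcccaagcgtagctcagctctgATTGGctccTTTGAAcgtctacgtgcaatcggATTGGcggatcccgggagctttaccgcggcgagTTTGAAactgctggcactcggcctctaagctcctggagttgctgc
Mki67 (chr7:135716350-135716529, minus strand): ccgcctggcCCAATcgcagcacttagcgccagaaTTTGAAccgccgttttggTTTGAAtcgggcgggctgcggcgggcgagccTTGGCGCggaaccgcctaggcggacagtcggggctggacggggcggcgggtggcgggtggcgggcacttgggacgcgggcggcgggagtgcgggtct
Cenpa (chr5:30666736-30666915, plus strand): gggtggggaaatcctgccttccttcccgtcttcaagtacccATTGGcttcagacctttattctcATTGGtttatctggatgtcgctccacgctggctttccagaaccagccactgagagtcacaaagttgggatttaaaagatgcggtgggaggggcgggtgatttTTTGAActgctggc
Ncapg and Kif15 carry CHR just before the start, on opposite strands, and Cdk1 carries it there as well as between its CCAAT boxes. Anln and Cenpa carry CHR just after the start. Kif18a holds an E2F motif alone in this stretch, and Ncaph holds no match in it.

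Among the cyclins, Cdk1 and Foxm1, all 5 measured genes fell with Aβ42, between -0.48 (Ccnb2) and -0.75 (Foxm1). Foxm1, the forkhead factor that drives late cell cycle genes, was at 8.54, 8.45 and 8.60 with vehicle, 8.24, 8.38 and 8.39 with AE1-329, 7.60, 7.86 and 7.90 with Aβ42 and 7.95, 8.16 and 8.19 with both agents in litters 1, 2 and 3. Its 3 Aβ42 arrays lay below all other arrays, the arrays with both agents came next, and no array of these groups overlapped with vehicle. The difference of Aβ42 from vehicle was -0.75 ± 0.09 (SE, limma, adjusted p = 2.68e-05). Cdk1, the kinase that starts mitosis, was at 10.65, 10.46 and 10.47 with vehicle, 10.17, 10.42 and 10.41 with AE1-329, 9.74, 10.10 and 10.22 with Aβ42 and 9.93, 10.28 and 10.34 with both agents. Litter 1 with Aβ42 was the lowest of the 12 arrays, and the Aβ42 and vehicle arrays did not overlap (-0.51 ± 0.13, adjusted p = 0.0102). Ccnf, the F-box protein that marks proteins for destruction in G2, was at 8.02, 8.47 and 8.59 with vehicle, 8.31, 8.41 and 8.42 with AE1-329, 7.50, 7.89 and 7.87 with Aβ42 and 8.05, 8.34 and 8.41 with both agents. It fell by 0.60 ± 0.15 with Aβ42 (adjusted p = 0.00718), and vehicle litter 1 was the lowest vehicle array by a wide margin. The cyclins A2 and B2, partners of Cdk1, differed by -0.57 ± 0.15 and -0.48 ± 0.15. The calls of Cdk1, Ccna2 and Ccnb2 were lost without the Aβ42 array of litter 1, and that of Ccnb2 also without vehicle litter 2 or 3.

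Of the 6 genes of chromosome structure, 5 fell with Aβ42. The condensin I subunits Ncaph and Ncapg fell most. Ncaph was at 9.58, 9.70 and 9.79 with vehicle, 9.72, 9.89 and 9.84 with AE1-329, 8.83, 9.08 and 9.06 with Aβ42 and 9.13, 9.38 and 9.39 with both agents, and its Aβ42 arrays were apart from and below every other array (-0.70 ± 0.09, adjusted p = 5.87e-05). Ncapg was at 8.17, 7.96 and 8.06 with vehicle, 7.64, 8.03 and 8.02 with AE1-329, 7.07, 7.45 and 7.26 with Aβ42 and 7.30, 7.66 and 7.79 with both agents. Its highest Aβ42 array was litter 2, still below the lowest vehicle array (-0.81 ± 0.14, adjusted p = 5.93e-04). Smc2 and Smc4, the ATPases shared by both condensins, differed by -0.43 ± 0.13 and -0.36 ± 0.10. Both calls were lost without Aβ42 litter 1, that of Smc2 also without vehicle litter 1 and that of Smc4 without vehicle litter 3. Mki67, the coat protein of mitotic chromosomes known as Ki-67, was at 10.66, 10.60 and 10.60 with vehicle, 10.20, 10.50 and 10.45 with AE1-329, 10.15, 10.37 and 10.37 with Aβ42 and 10.52, 10.75 and 10.76 with both agents. The 3 vehicle arrays and litters 2 and 3 with both agents were its high arrays, and litter 1 was low with AE1-329 as well as with Aβ42. Mki67 fell with Aβ42 alone (-0.32 ± 0.09, adjusted p = 0.0192), but not without the Aβ42 or the vehicle array of litter 1. Topoisomerase Top2a did not pass (-0.23 ± 0.12, adjusted p = 0.205), at 9.77, 9.72 and 9.78 with vehicle and 9.27, 9.70 and 9.60 with Aβ42, although the groups did not overlap, and passed with the block (adjusted p = 0.0486).

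All 4 genes of the spindle checkpoint fell with Aβ42. Bub1b, which encodes the checkpoint protein BubR1, was at 8.60, 8.72 and 8.80 with vehicle, 8.43, 8.71 and 8.80 with AE1-329, 7.60, 7.99 and 8.03 with Aβ42 and 7.84, 8.27 and 8.34 with both agents. Each Aβ42 array lay below all vehicle and AE1-329 arrays, and litter 1 was again the lowest (-0.83 ± 0.14, adjusted p = 7.13e-04). Ttk, the checkpoint kinase Mps1, was at 6.98, 6.81 and 7.06 with vehicle, 6.66, 6.84 and 6.99 with AE1-329, 6.18, 6.48 and 6.37 with Aβ42 and 6.46, 6.72 and 6.80 with both agents and fell by 0.61 ± 0.11 (adjusted p = 0.00115). Its Aβ42 arrays lay apart from and below vehicle. Bub1, a kinase of the same pathway, and Mad2l1, whose protein Mad2 holds Cdc20 in check, differed by -0.48 ± 0.16 and -0.41 ± 0.10. The call of Bub1 was lost without Aβ42 litter 1 or 2, AE1-329 litter 2, or vehicle litter 2 or 3.

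Fewer calls of the other mitotic kinases and the chromosomal passenger complex were made without the litter block than with it. Plk1, the Polo-like kinase of spindle assembly, was at 9.98, 10.29 and 10.31 with vehicle, 9.93, 10.17 and 10.09 with AE1-329, 9.32, 9.74 and 9.81 with Aβ42 and 9.66, 10.13 and 10.12 with both agents. It was the only call without the block among 4 kinases outside these complexes (-0.57 ± 0.15, adjusted p = 0.0121) and was lost without the Aβ42 array of litter 1. The maternal embryonic leucine zipper kinase Melk was at 8.22, 8.44 and 8.46 with vehicle and 7.76, 8.21 and 8.17 with Aβ42 and passed with the block alone (-0.33 ± 0.13, adjusted p = 0.0997 without it and 8.68e-04 with it). Aurka, the Aurora kinase of the spindle poles, and Nek2, a centrosome kinase, did not pass either (-0.23 and -0.19), but Aurka did with the block (adjusted p = 0.0116). Aurkb, the kinase of the passenger complex, was at 10.05, 10.09 and 10.07 with vehicle, 9.86, 10.02 and 10.00 with AE1-329, 9.02, 9.43 and 9.53 with Aβ42 and 9.39, 9.86 and 9.80 with both agents. The 3 vehicle arrays lay within a narrow span, and every Aβ42 array lay below them (-0.74 ± 0.13, adjusted p = 8.39e-04). Its partners did not pass without the block, with -0.23 ± 0.12 for survivin (Birc5) and -0.29 ± 0.11 for borealin (Cdca8), the latter at 7.97 to 8.25 with vehicle and 7.67 to 7.86 with Aβ42. Both passed with the block (adjusted p = 0.0251 and adjusted p = 0.00372). Incenp, the scaffold that activates Aurkb, had a positive difference that did not pass (0.12 ± 0.07, adjusted p = 0.231).

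Of 9 centromere and kinetochore genes, 5 fell with Aβ42, namely Cenpa, Cenpf, Cenph, Ndc80 and Spc25. Cenpa, the centromeric histone itself, fell by 0.78 ± 0.14 (adjusted p = 0.00106), and its array values are given with AE1-329. Ndc80, the microtubule-binding subunit of the outer kinetochore, was at 8.17, 7.72 and 8.07 with vehicle, 7.66, 7.94 and 7.97 with AE1-329, 7.25, 7.47 and 7.45 with Aβ42 and 7.44, 7.51 and 7.69 with both agents. Vehicle litter 2 was its lowest vehicle array and still lay above the 3 Aβ42 arrays (-0.60 ± 0.12, adjusted p = 0.00202). Of the same complex, Spc25 passed with -0.54 ± 0.13, Nuf2 passed with the block alone (-0.30 ± 0.17, blocked adjusted p = 0.0112), and Spc24 did not pass in either fit (-0.04 ± 0.10). Cenpf, a large protein of the kinetochore corona, and Cenph, a subunit of the inner kinetochore, differed by -0.46 ± 0.12 and -0.63 ± 0.13. The kinetochore motor Cenpe was the gene closest to the threshold among those that did not pass (-0.36 ± 0.13, adjusted p = 0.0653). Cenpi, of the inner kinetochore, did not pass either (-0.23), and both passed with the block (adjusted p = 0.0176 for Cenpe and adjusted p = 0.0430 for Cenpi).

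All 9 mitotic kinesins fell with Aβ42, between -0.47 (Kif4) and -0.73 (Kif15). Kif18a, which dampens chromosome movements at the metaphase plate, was at 6.71, 6.80 and 7.05 with vehicle, 6.76, 6.85 and 7.06 with AE1-329, 6.00, 6.31 and 6.17 with Aβ42 and 6.38, 6.40 and 6.61 with both agents. The Aβ42 arrays did not overlap with any other group (-0.69 ± 0.11, adjusted p = 3.19e-04). Kif15, which helps to keep the spindle bipolar, was at 8.01, 7.91 and 7.94 with vehicle, 7.57, 7.75 and 7.87 with AE1-329, 6.92, 7.44 and 7.31 with Aβ42 and 7.20, 7.52 and 7.61 with both agents, and its difference was -0.73 ± 0.13 (adjusted p = 8.44e-04). Kif11, the motor that separates the spindle poles, differed by -0.72 ± 0.15 (adjusted p = 0.00275). The cytokinesis motors Kif20a and Kif23 differed by -0.62 ± 0.14 and -0.54 ± 0.11, and Kif20b, a relative of Kif20a, by -0.67 ± 0.16. Kif2c, which takes apart microtubules at the centromere, and the chromosome-bound motors Kif22 and Kif4 differed by -0.56 ± 0.15, -0.60 ± 0.18 and -0.47 ± 0.15. The calls of these last 3 were lost without the Aβ42 array of litter 1 or vehicle litter 3, and those of Kif22 and Kif4 also without vehicle litter 2. Kif4 was lost without Aβ42 litter 3, AE1-329 litter 2 or litter 2 of both agents as well.

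Of 4 genes of spindle assembly and cytokinesis, 3 fell. Anln, the scaffold of the contractile ring, was at 9.06, 8.96 and 9.02 with vehicle, 8.43, 8.69 and 8.77 with AE1-329, 7.96, 8.37 and 8.35 with Aβ42 and 8.17, 8.49 and 8.61 with both agents. Its vehicle arrays lay above all arrays of the other groups, and the Aβ42 arrays of litters 2 and 3 lay inside the range of the arrays with both agents (-0.79 ± 0.13, adjusted p = 4.36e-04). Ect2, the exchange factor that activates RhoA at the midzone, was at 9.18, 9.37 and 9.33 with vehicle, 9.14, 9.43 and 9.33 with AE1-329, 8.55, 8.79 and 8.90 with Aβ42 and 8.93, 9.19 and 9.19 with both agents and fell by 0.55 ± 0.10 (adjusted p = 0.00147). Tpx2, the activator of Aurora A, fell by 0.36 ± 0.11 (adjusted p = 0.0298), though not without Aβ42 litter 1 or vehicle litter 3, while the midzone bundler Prc1 passed with the block alone (-0.28 ± 0.16, adjusted p = 0.252 without it and 0.0154 with it). Among the 4 genes of the anaphase-promoting complex and chromatid separation none passed by limma, with 3 at an unadjusted p under 0.05. Ube2c, the ubiquitin-conjugating enzyme of the complex, was at 10.27, 10.11 and 9.96 with vehicle and 9.77, 9.85 and 9.98 with Aβ42 and overlapped between the groups (-0.24 ± 0.09, adjusted p = 0.075). Separase, Espl1, was at 7.49, 7.70 and 7.89 with vehicle and 7.27, 7.49 and 7.56 with Aβ42 and overlapped as well (-0.25 ± 0.10, adjusted p = 0.078), but passed with the block (adjusted p = 0.0135). The activator Cdc20 differed by -0.23 ± 0.15 (adjusted p = 0.345). Securin, Pttg1, which restrains separase, was at 9.29, 9.30 and 9.35 with vehicle and 9.43, 9.40 and 9.53 with Aβ42, so that every Aβ42 array lay above every vehicle array (0.14 ± 0.06, adjusted p = 0.0901 and, with the block, adjusted p = 0.0478).

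**Figure D2:**
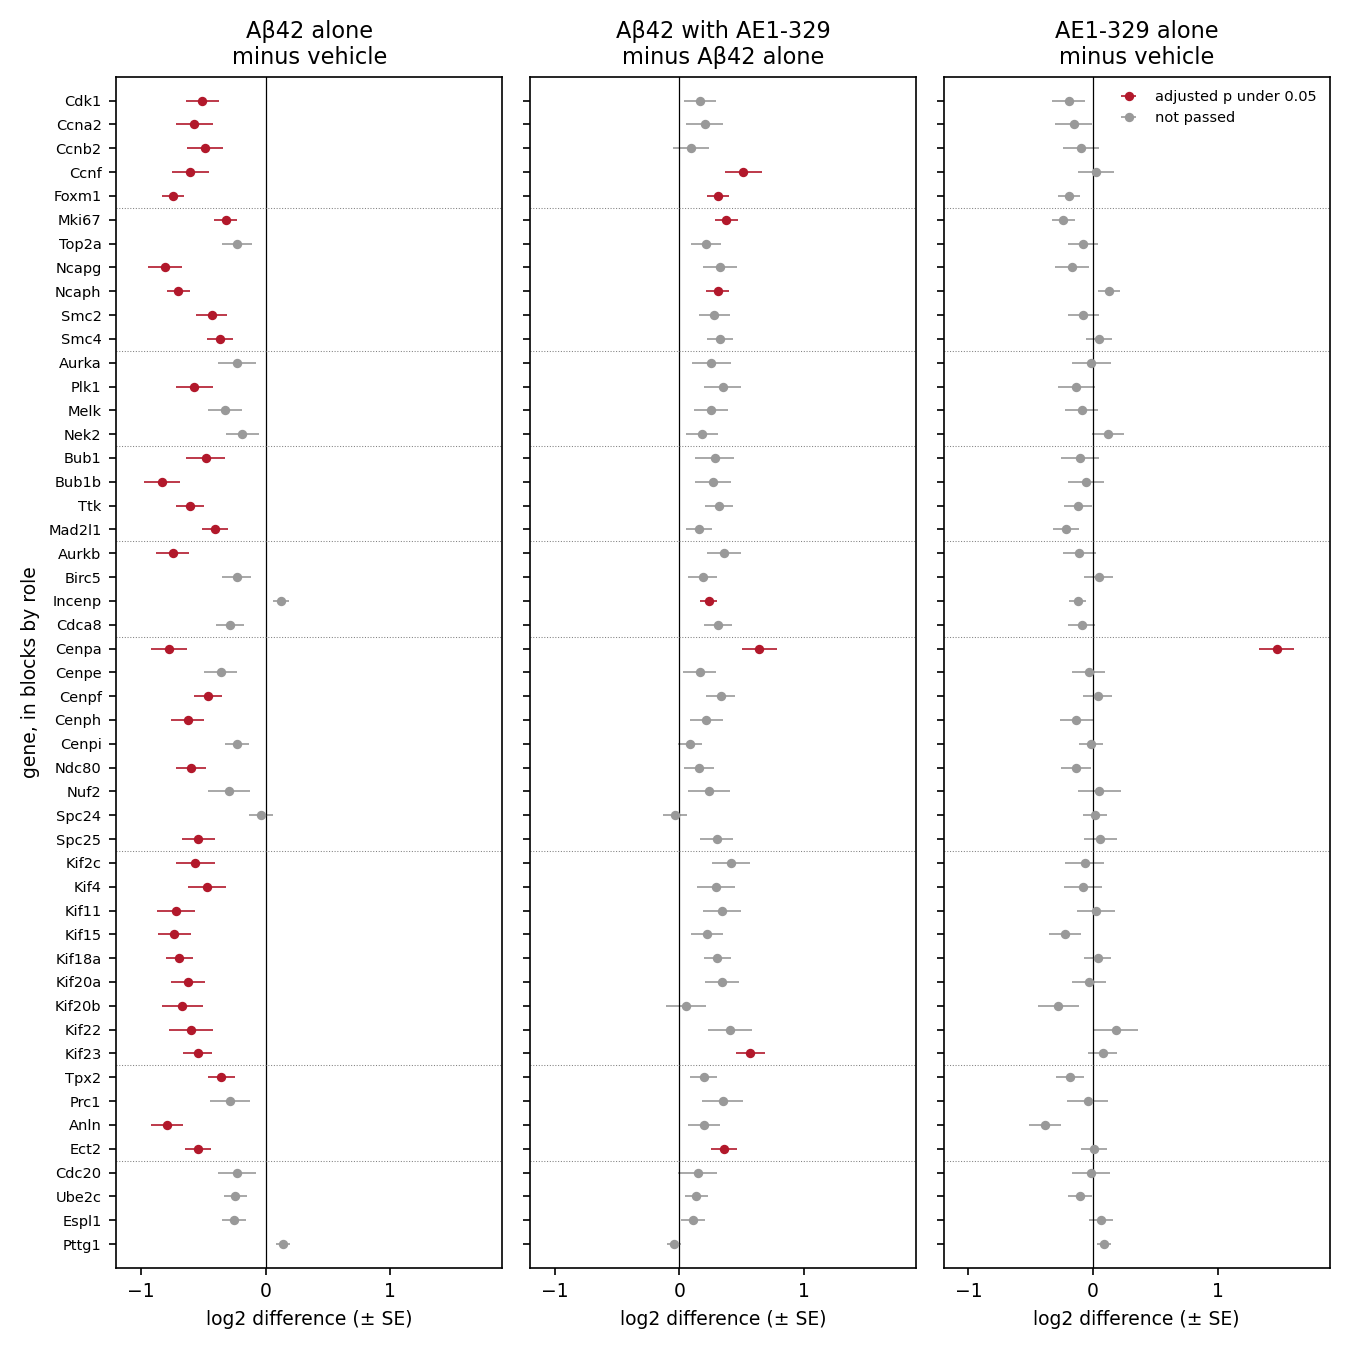
Log2 differences (points) with standard errors (bars) of the 49 genes for 3 comparisons, in the same order as by role. Red points passed an adjusted p of 0.05 by limma. Left, 33 genes lie to the left of 0 in red. Middle, 8 lie to the right in red. Right, Cenpa alone is red.

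Related genes outside the set were counted from lists written out by function, with earlier results of these data known. Over all genes 14.8% fell and 10.7% rose with Aβ42 alone. Of 52 other mitosis genes 33 fell with Aβ42 alone and 1 rose, with a median of -0.45. Mastl, the Greatwall kinase, fell most in that list (-1.19 ± 0.18), followed by the cohesin acetyltransferase Esco2 (-0.92 ± 0.11), and Ube2s, another ubiquitin-conjugating enzyme, rose (0.23 ± 0.07). Of 32 other subunits of the centromere, kinetochore, condensin and cohesin 20 fell and 4 rose. The condensin II subunits Ncapg2 and Ncapd3 differed by -1.21 ± 0.10 and -0.84 ± 0.05, and the cohesin releasing factor Wapl by 0.41 ± 0.06. Of 15 other genes of the anaphase-promoting complex 1 fell, Anapc15 (-0.78 ± 0.11), and the list's median was -0.05. Of 24 further genes of kinesins and their subunits 9 fell and 2 rose, with a median of -0.04. Kif21b and Kif13b fell (-1.05 ± 0.07 and -0.93 ± 0.08), and Kif3c and Kif5b, the conventional kinesin heavy chain, rose (0.91 ± 0.08 and 0.27 ± 0.06).

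Genes that act before mitosis were counted in the same way, beside the same shares of all genes. Of 42 genes of DNA replication and the G1/S step 28 fell with Aβ42 alone and 2 rose (median -0.42). Ccne2, a cyclin of S phase entry, and Mcm4, a subunit of the replicative helicase, differed by -1.18 ± 0.11 and -0.82 ± 0.08. The licensing factor Cdt1 and the phosphatase Cdc25a rose (0.43 ± 0.13 and 0.37 ± 0.09). Of 23 E2F, DREAM and MuvB regulators 12 fell and 1, E2f4, rose (0.34 ± 0.07). E2f1 and E2f8 fell (-0.74 ± 0.05 and -1.03 ± 0.10), and so did Rbl2, the pocket protein p130 of the DREAM repressor (-0.83 ± 0.08). Of 16 CDK inhibitors and antiproliferative genes 4 rose and 5 fell. The inhibitor of Cdk4 and Cdk6 Cdkn2b and the stress gene Gadd45b rose (1.02 ± 0.07 and 1.91 ± 0.08), while Cdkn1b, which encodes p27, and Ccng2 fell (-0.80 ± 0.07 and -1.50 ± 0.11). Of 12 G1 cyclins, CDKs and mitogen genes 3 rose and 3 fell, with Cdk6 at 1.38 ± 0.05, Myc at 0.63 ± 0.09 and Ccnd1 at -0.59 ± 0.10.

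**Figure D3:**
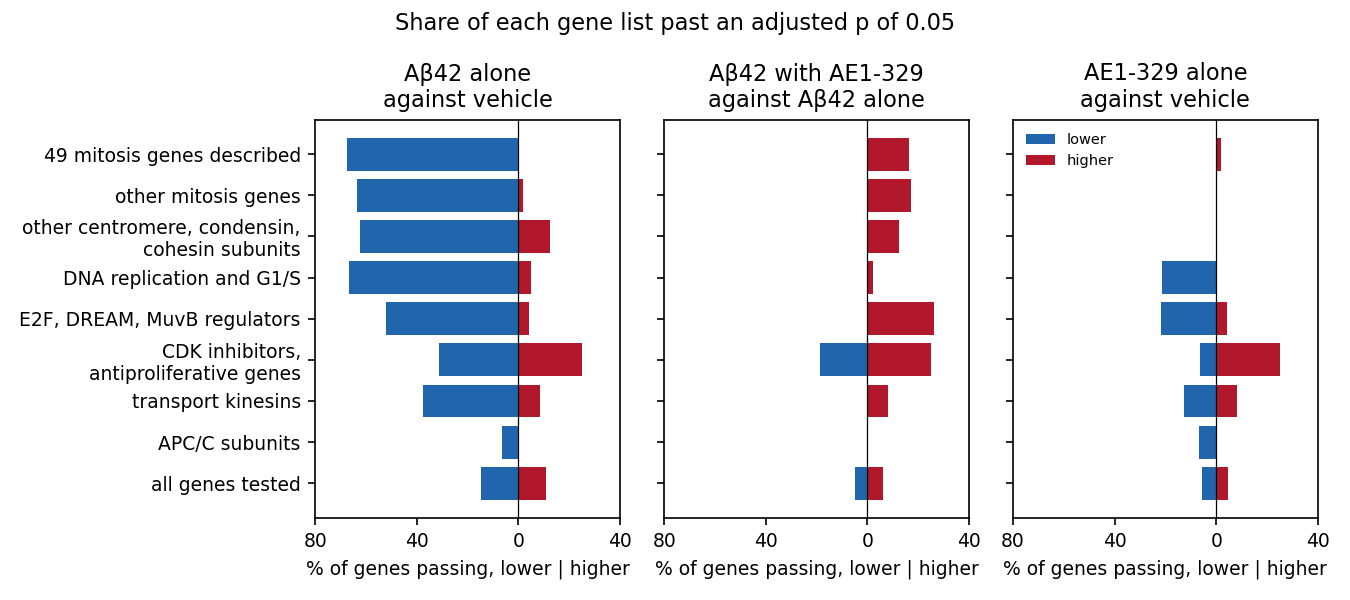
Percent of the genes of each list that passed an adjusted p of 0.05 by limma, to the left of 0 for lower and to the right for higher, in 3 comparisons. The bottom bar gives all 19938 genes (14.8% lower and 10.7% higher with Aβ42 alone). The bars to the left are longest for mitosis and replication genes with Aβ42. They are close to the bottom bar or shorter for genes of the anaphase-promoting complex (drawn as APC/C subunits). The list drawn as transport kinesins holds further kinesins and their subunits.

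AE1-329 alone left the set near vehicle, except for Cenpa. Of the 49 genes 1 rose and none fell by limma, with 3 lower at an unadjusted p under 0.05, where 4.71% of all genes rose and 5.45% fell. The median difference was -0.07, 32 estimates were negative, and 16 genes were lower and 8 higher in each of the 3 litters. The AE1-329 arrays lay below all vehicle arrays for 8 genes and above them for 2, where 12.6% and 10.4% of all genes were apart in these directions. With the litter as a block Anln and Mki67 passed as lower as well (differences of -0.39 and -0.24, adjusted p = 0.0128 and adjusted p = 0.0436 in the blocked fit), where 6.58% of all genes fell. Cenpa remained the single rise with the block, where 6.06% of all genes rose.

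Cenpa was at 9.64, 9.92 and 9.88 with vehicle, 11.15, 11.37 and 11.35 with AE1-329, 8.70, 9.14 and 9.27 with Aβ42 and 9.44, 9.86 and 9.74 with both agents. The 3 AE1-329 arrays were the highest of the 12 by more than a log2 unit, the Aβ42 arrays were the lowest, and the arrays with both agents overlapped with vehicle. AE1-329 alone raised Cenpa 2.78-fold (1.47 ± 0.14, adjusted p = 2.50e-05), by 1.51, 1.44 and 1.47 in litters 1, 2 and 3, and the call held under all 19 alternatives. Where Aβ42 was present the rise was 0.64 ± 0.14 (adjusted p = 0.0104), with 0.74, 0.72 and 0.47 in the 3 litters, and it did not pass without litter 2 of both agents. The test of the difference between these rises, the interaction, missed the threshold (-0.83 ± 0.20, adjusted p = 0.0616) and passed with the litter as a block (adjusted p = 0.000712). None of 32 other centromere, kinetochore, condensin and cohesin subunits passed with AE1-329 alone by limma, with 2 higher and 2 lower at an unadjusted p under 0.05. Oip5, which helps to deposit CENP-A, differed by -0.09 ± 0.15 (adjusted p = 0.834). Of the measured genes annotated next to Cenpa on chromosome 5, Slc35f6 rose (0.20 ± 0.05, adjusted p = 0.0366) and Dpysl5 did not pass (0.04 ± 0.07, adjusted p = 0.835).

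Several replication genes fell with AE1-329 alone. Of the 42 genes of DNA replication and G1/S 9 fell and none rose by limma, with none higher at an unadjusted p under 0.05 either. The 5 with the smallest p were Ccne2 (-0.73 ± 0.11), Pcna, the sliding clamp (-0.57 ± 0.09), and the helicase subunits Mcm2 (-0.55 ± 0.09), Mcm6 (-0.67 ± 0.11) and Mcm3 (-0.54 ± 0.10). Of the 52 other mitosis genes none passed by limma, with 1 higher and 5 lower at an unadjusted p under 0.05. Of 23 E2F, DREAM and MuvB regulators 5 fell, E2f1 among them (-0.48 ± 0.05), and 1 rose, Rbl2 (0.33 ± 0.08). Of 16 CDK inhibitors and antiproliferative genes 4 rose, Cdkn1b among them (0.34 ± 0.07), and 1 fell. Of 12 G1 cyclins, CDKs and mitogen genes 4 fell and 1 rose. Cdk6, Myc and Ccnd1 were among those falls (-1.06 ± 0.05, -0.99 ± 0.09 and -0.96 ± 0.10), and the largest estimate in that list was 1.02. Over all genes 4.71% rose and 5.45% fell with AE1-329 alone. Whether the replication genes respond differently from the mitosis genes was not tested.

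**Figure D4:**
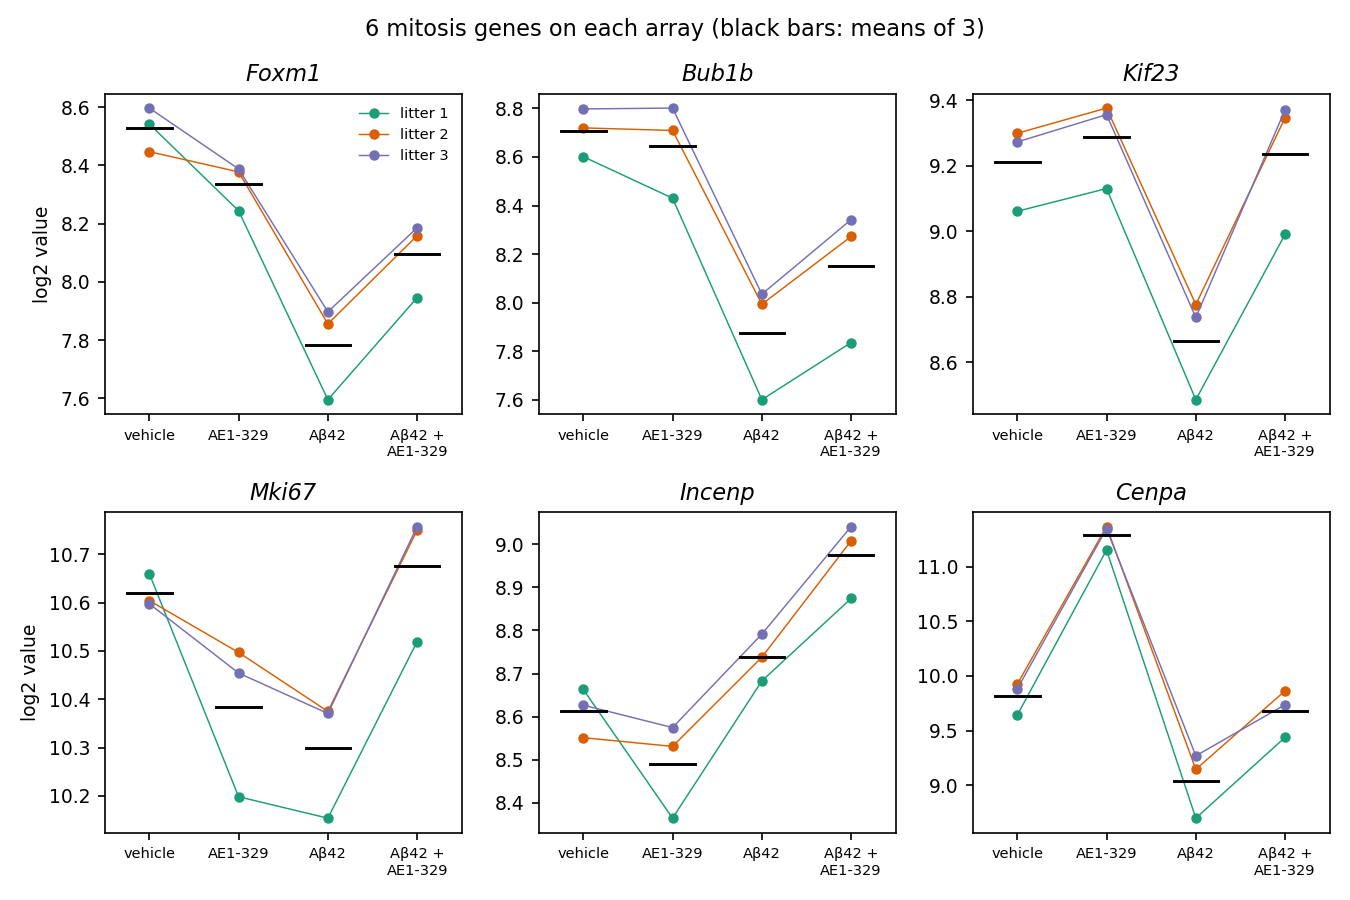
Log2 values of 6 members on each of the 12 arrays, by group. Points of a colour are a litter, thin lines join a litter across groups, and black bars are means of 3 arrays. Foxm1, Bub1b and Kif23 are lowest with Aβ42, Mki67 and Incenp have their highest group means with both agents, and Cenpa is highest with AE1-329 alone. Each panel has its own axis, which does not start at 0.

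With AE1-329 added to Aβ42, some mitosis genes stood above their level with Aβ42 alone. Against Aβ42 alone 8 of the 49 rose and none fell by limma, with none lower at an unadjusted p under 0.05, where 5.99% of all genes rose and 5.04% fell. The estimate was positive for 47 genes with a median of 0.27, against -0.02 over all genes, and 45 genes were higher in each of the 3 litters. The arrays with both agents lay above all Aβ42 arrays for 13 genes, where 15.9% of all genes did. In a fit of only the genes above the median level, 9 of 42 members rose and none fell, where 13.4% of those genes rose and 10.3% fell. With the litter as a block 27 of the 49 rose and none fell, where 7.41% of all genes rose and 6.05% fell. The count without the block changed when single arrays were left out. It was 14 without litter 1 of the group with both agents, and 1 and 2 without its litters 2 and 3. Without Aβ42 litters 1, 2 and 3 it was 2, 4 and 5. Leaving out AE1-329 litters 2 and 3, which are not in this comparison, gave 4 and 5, with the median unchanged at 0.27. Over all genes the share of rises in these fits ran from 4% to 5.52%.

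The 8 genes that rose were Ccnf, Foxm1, Mki67, Ncaph, Incenp, Cenpa, Kif23 and Ect2. Kif23, the centralspindlin motor of the midzone, was at 9.06, 9.30 and 9.27 with vehicle, 9.13, 9.38 and 9.36 with AE1-329, 8.49, 8.78 and 8.74 with Aβ42 and 8.99, 9.35 and 9.37 with both agents. All arrays with both agents lay above the Aβ42 arrays, and those of litters 2 and 3 were level with the AE1-329 arrays of the same litters (0.57 ± 0.11, adjusted p = 0.00551). Kif23 was the only one of the 8 calls that held under all alternatives, and Cenpa's was lost under 1 of 19, Mki67's under 3, and the other 5 under 7 to 12. Foxm1 rose by 0.31 ± 0.09 (adjusted p = 0.0375) and its arrays with both agents all remained below the vehicle arrays. Ccnf and Ect2 rose by 0.51 ± 0.15 (adjusted p = 0.0395) and 0.36 ± 0.10 (adjusted p = 0.0452). Ncaph was just inside the threshold (0.31 ± 0.09, adjusted p = 0.0474) and Smc4 just outside it (0.33 ± 0.10, adjusted p = 0.0667). Cdk1 did not pass in either fit (0.17 ± 0.13). Plk1 (0.35 ± 0.15), Aurkb (0.36 ± 0.13), Bub1b (0.27 ± 0.14) and Smc4 passed with the block alone, with adjusted p = 0.00369, 0.0174, 0.0146 and 0.0125.

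In group means Aβ42 alone was the lowest of the 4 groups for 46 of the 49 genes. The group with both agents lay between vehicle and Aβ42 alone for 42 genes, above both for 6 (Mki67, Aurka, Incenp, Cdca8, Kif23 and Prc1) and below both for 1. Of the other mitosis genes 9 of 52 rose with both agents against Aβ42 alone and none fell by limma, with none lower at an unadjusted p under 0.05. They included Esco2 (0.54 ± 0.11) and the shugoshin Sgo2a (0.57 ± 0.13). Of the 42 replication genes 1 rose, Gins3 (0.22 ± 0.06), and none fell by limma, with 3 lower at an unadjusted p under 0.05. Among the regulators 6 of 23 rose, with Rbl2 at 0.85 ± 0.08 and E2f8 at 0.38 ± 0.10. Of 16 CDK inhibitors and antiproliferative genes 4 rose, Cdkn1b and Ccng2 among them (0.65 ± 0.07 and 0.92 ± 0.11). In that list 3 fell, with estimates down to -0.94. Of 12 G1 cyclins, CDKs and mitogen genes 2 rose and 3 fell, with estimates down to -1.27. Over all genes 5.99% rose and 5.04% fell in this comparison. The comparisons with vehicle and with Aβ42 alone share the Aβ42 arrays, so a low Aβ42 array enters both.

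In cells given AE1-329, the shares of members called with added Aβ42 lay below those of all genes in the fit without the litter block. Against AE1-329 alone 4 of the 49 fell and 2 rose, where 12.2% of all genes fell and 9.77% rose, and the median difference was -0.13. Estimates were negative for 40 of the 49, and 27 genes were lower and 6 higher in each of the 3 litters. The falls were those of Cenpa (-1.61 ± 0.14), Ncaph (-0.52 ± 0.09), Bub1b (-0.50 ± 0.14) and Kif18a (-0.42 ± 0.11). The arrays with both agents lay below all AE1-329 arrays for 8 genes and above for 2, where 20.7% and 19.4% of all genes were apart. With the litter as a block 14 fell and 2 rose, where 14.4% of all genes fell and 10.7% rose. The falls numbered 7 without AE1-329 litter 1, and 2 without AE1-329 litter 3 or without litter 1 of the group with both agents, which lost Bub1b and Kif18a. The rises were those of Mki67 (0.29 ± 0.09, adjusted p = 0.0355) and Incenp (0.48 ± 0.07, adjusted p = 1.41e-04), and Incenp was the single rise without AE1-329 litter 1 or without litter 2 or 3 of the group with both agents.

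Incenp was at 8.66, 8.55 and 8.63 with vehicle, 8.36, 8.53 and 8.57 with AE1-329, 8.68, 8.74 and 8.79 with Aβ42 and 8.87, 9.01 and 9.04 with both agents. The Aβ42 arrays lay just above the vehicle arrays, the arrays with both agents lay above all 9 others, and AE1-329 litter 1 was the lowest array. Incenp also rose against Aβ42 alone (0.24 ± 0.07, adjusted p = 0.0414). No other member had its group means in the order AE1-329, vehicle, Aβ42 and both agents from low to high.

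The interaction asks whether the effect of Aβ42 differed with and without AE1-329. Of the 49 genes 1 passed in the positive direction, Mki67, and none in the negative direction by limma, with 1 lower at an unadjusted p under 0.05, where 1.03% and 0.918% of all genes passed. Mki67 fell with Aβ42 in the absence of AE1-329 and rose with Aβ42 in its presence, and this held in each litter, with -0.51, -0.23 and -0.23 without AE1-329 and 0.32, 0.25 and 0.30 with it. The difference between these effects was 0.61 ± 0.13 (adjusted p = 0.0286), with adjusted p between 0.0504 and 0.0853 under the 8 of 18 alternatives that lost the call. Those were the test over all probe sets and leaving out any Aβ42 array, litters 2 or 3 of both agents, or litter 1 of AE1-329 or vehicle. Estimates were positive for 46 genes with a median of 0.35, and positive in each litter for 36. With the litter as a block 15 passed in the positive direction and Cenpa in the negative direction, where 1.73% and 1.67% of all genes passed. Among positive estimates those of Anln (0.58 ± 0.18) and Foxm1 (0.51 ± 0.12) came after Mki67, and neither passed without the block (adjusted p = 0.174 and adjusted p = 0.0658).

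**Figure D5:**
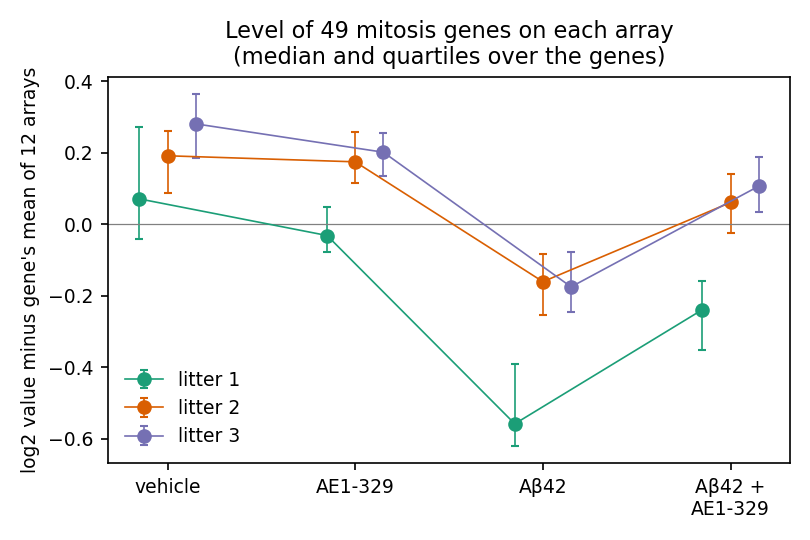
Median (points) and quartiles (bars) over the 49 genes of the log2 value minus the gene's mean over 12 arrays, for each array, with lines joining the arrays of a litter. Litter 1 is lowest in every group, and in each litter the Aβ42 array is lowest.

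The litters differed in level but shared the order of the groups. The median deviation of the 49 genes from their 12-array means was 0.07, 0.19 and 0.28 on the vehicle arrays of litters 1, 2 and 3. It was -0.03, 0.17 and 0.20 with AE1-329, -0.56, -0.16 and -0.17 with Aβ42, and -0.24, 0.06 and 0.11 with both agents. Litter 1 was the lowest of 3 for 47, 48 and 47 genes with AE1-329, Aβ42 and both agents, and for 29 genes with vehicle. Within litters the median effect of Aβ42 alone was -0.62, -0.35 and -0.42, and that of adding AE1-329 to Aβ42 was 0.25, 0.24 and 0.29. The median SD among the 3 arrays of a group was 0.20 with Aβ42 and 0.21 with both agents for these genes, and 0.06 and 0.07 for all genes. In the vehicle group it was 0.13 for these genes and 0.11 for all. With AE1-329 alone it was 0.14 for these genes and 0.06 for all.

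Markers of other cells that could divide in such cultures were set beside the result. Among 8 neural progenitor markers none passed with Aβ42 alone by limma, with 1 at an unadjusted p under 0.05. The log2 of that list's summed linear level was 13.62 to 13.73 on the vehicle arrays and 13.53 to 13.62 on the Aβ42 arrays. Such a sum rests mostly on the genes with the highest values, and 3 of the 8 lay above the median level. The mean log2 level of the 8 was 7.89 to 8.06 with vehicle and 7.94 to 7.99 with Aβ42. With AE1-329 alone 1 of the 8 fell, Nes, an intermediate filament of progenitors (-1.06 ± 0.11), where 5.45% of all genes fell. None of the 8 rose by limma, with none higher at an unadjusted p under 0.05, where 4.71% of all genes rose. Of their 8 estimates 4 were positive and 4 negative. The counts that follow are for Aβ42 alone, where 10.7% of all genes rose and 14.8% fell. Of 9 astrocyte markers 1 rose, Slc1a3 (0.52 ± 0.11), and of 9 oligodendrocyte lineage markers 2 fell, Mbp and Cnp (-0.27 ± 0.06 and -0.31 ± 0.11). Of 11 endothelial and mural markers 1 fell, Kdr (-0.50 ± 0.10). Of 7 markers of monocytes and border macrophages 1 rose, Ms4a7 (0.73 ± 0.08), and of 8 neutrophil and lymphocyte markers 1 rose, Ms4a1 (0.27 ± 0.08). The latter 8 all lay at or below the median level. None of 9 neuron markers passed, with none at an unadjusted p under 0.05. Of the 13 microglia markers 3 rose and 4 fell with Aβ42 alone, with P2ry12 at -1.43 ± 0.11. The part of other cells in the fall of the mitosis genes was not tested.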

How the data were processed

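Per the labels, 12 Affymetrix Mouse Gene 1.0 ST arrays held 4 groups of 3. The deposited table holds a log2 value for each probe set and array (2.79 to 13.95), its scale read from that range. RMA and Partek 6.5 appear in the list of tools, per the submitters' processing notes, with no role given. No genome build is given in the sources used here. RMA usually equalises the arrays, so changes are relative to the bulk of genes. Array medians lay between 6.97 and 7.05. Precision is limited by the number of arrays.

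Of 35556 probe sets 21789 carried 1 gene symbol, 1621 several and 12146 none, and 21698 of the first kind matched RefSeq (GRCm38.p6). The probe set with the highest mean stood for each of 19938 genes, with no filter on level. All 12 arrays entered a single limma fit of 4 group means (version 3.58.1, R 4.3.3), moderated by eBayes, with 8 residual and 4.54 prior degrees of freedom. Tests were two-sided, with Benjamini-Hochberg adjustment over all genes of a comparison, and errors after ± are standard errors of the fit. The fit was tested on simulated data.

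The design text says that replicates are litters, and a replicate number was taken as the same litter in each group. Arrays of the same number deviated from their group means together (mean r 0.33 over 18 pairs, 17 of them above 0.1). These correlations are across genes, which are not independent. The fit without the block is reported, and the fit with it is an alternative. The members and gene lists were chosen with earlier results of these data known. Array values were given for Cdk1, Mki67, Top2a, Foxm1, Plk1 and Aurkb, for the 2 members of each role with the smallest p for Aβ42 alone, for members that passed in another comparison and for those against the majority. Of other lists up to 5 genes with the smallest p in a comparison could be named, and up to 3 that moved against most of the list. Oip5 and the genes next to Cenpa were named after their values were seen.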

Additional observations from a re-analysis of the deposited data

Results flagged for a closer look

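The effect of Aβ42 differed with the presence of AE1-329 for Mki67 by limma's interaction term (0.61, adjusted p = 0.0286). Over all genes 1.73% passed that test in the positive and 1.67% in the negative direction with the litter as a block. In that fit 15 further members passed, with these estimates, which are the same in both fits. Among the cyclins and kinases they were Ccna2 (0.36), Ccnf (0.49), Foxm1 (0.51), Plk1 (0.48) and Melk (0.35). Among checkpoint and passenger genes they were Bub1 (0.39), Incenp (0.36) and Cdca8 (0.40). The kinesins among them were Kif2c (0.48), Kif11 (0.32), Kif20a (0.38) and Kif23 (0.49), and the cytokinesis genes Anln (0.58) and Ect2 (0.35). Cenpa was the single one with a negative estimate (-0.83). The blocked adjusted p lay between 0.000712 (Cenpa) and 0.0456 (Ccna2), and without the block between 0.0616 (Cenpa) and 0.748 (Kif11). No group was large enough for a check of single arrays that stand apart.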

How the results depend on the processing

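All 33 falls with Aβ42 alone were called with the replicate block, 21 of them under every alternative that tested them (Cenph, Kif18a, Kif20b and Ttk lay below the level filter), and the other 12 were lost without Aβ42 litter 1. The block lost no call of a member in any comparison. Where the block moved counts, it gave 1 higher for Aβ42 alone, 2 lower for AE1-329 alone, 27 higher for both agents against Aβ42 alone, 14 lower against AE1-329 alone, and 15 higher and 1 lower for the interaction (677 of all genes against 389). Only genes above the median level gave 1 higher for Aβ42 alone and 2 higher and 1 lower for the interaction. Testing all probe sets gave 3 higher against Aβ42 alone, 1 against AE1-329 alone and 0 for the interaction. Quantile normalization again gave 5 and 1 higher and 1 lower for the same comparisons, and a median of 0.25 against Aβ42 alone. Using only the groups of the comparison gave 5 and 1 higher, and 970 calls over all genes against 2026 for AE1-329 alone. Neither the mean of all probe sets nor limma's trended, robust prior moved a count by over 1.5 times. Leaving out an array in turn gave 21 to 35 lower for Aβ42 alone and 0 to 1 lower for AE1-329 alone, whose median ran from -0.12 to 0.015, changing sign without AE1-329 litter 1. Both agents against Aβ42 alone gave 1 to 14 higher (median 0.14 to 0.39), and against AE1-329 alone 2 to 7 lower and 1 to 2 higher (median -0.22 to -0.047). The interaction gave 0 to 2 higher and 0 to 1 lower (median 0.22 to 0.47), with 246 to 557 calls over all genes. The causes were not tested. Small differences may be missed with 3 arrays a group, where the median SD of these genes reached 0.21.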
